A study of Mus musculus with 6 samples.

Results

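The genes described here are 10 members of the interleukin-1 and interleukin-18 family and of the inflammasome, found by gene name among the 49315 genes of the count table: the cytokines Il18 and Il33, the IL-18 inhibitor Il18bp, the receptors Il1r1, Il1rap and Il1rl1, and the inflammasome genes Casp1, Casp4, Pycard and Gsdmd. All 10 were present, and all 10 passed the filter (5 or more counts in 2 or more samples) that left 18234 genes for the test. Of these, 8 would have passed in either group alone, but Pycard and Il1rl1 passed only through the GapmeR samples, where they were higher, so they could be tested only because they differed in this direction. They were measured by RNA sequencing in bEND.3 cells (mouse brain endothelium, immortalized) that had been transfected by lipofection with an antisense LNA GapmeR. The 4 GapmeR samples received a GapmeR against the long non-coding RNA Gm39822 at 100 nM, and the 2 negative control samples a negative control GapmeR at 100 nM; both groups are the same line, and the labels name no added cytokine. A GapmeR is a short antisense oligonucleotide whose central DNA stretch makes RNase H cut the paired RNA. The labels name a single product as the targeting GapmeR, and nothing in the labels says that samples of a group came from separate cultures, so the p-values measure the spread between these samples, which may be technical. The depth was 33074972, 37117934, 30264086 and 31067184 counts for GapmeR samples 1 to 4 and 29261988 and 34266811 counts for negative controls 1 and 2, and values per sample are given in this order throughout.

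Cytokines of the IL-1 family are sensed by paired receptors, a ligand-binding chain and an accessory chain, which recruit MyD88 and IRAK kinases and lead to NF-kB. IL-1 beta and IL-18 are made as inactive precursors. Inflammasomes are complexes of a sensor, the adaptor ASC (the product of Pycard) and caspase-1, which cleaves these precursors and gasdermin D, whose cleaved form opens pores in the plasma membrane. Caspase-11, the product of mouse Casp4, cleaves gasdermin D after it binds bacterial lipopolysaccharide in the cytosol. IL-33 is kept in the nucleus of endothelial and epithelial cells and is released when these cells are damaged. In activated endothelium, IL-1 signaling raises adhesion molecules and chemokines.

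After GapmeR-mediated knockdown of Gm39822, 6 of the 10 genes fell, 1 rose and 3 did not pass the test. Il18 was 4.34-fold, Il18bp 4.06-fold, Il33 2.78-fold and Gsdmd 2.60-fold lower, Il1rap fell 1.58-fold and Casp4 1.29-fold, while Pycard rose from very few counts and was tested only through the GapmeR samples. Il1r1, Il1rl1 and Casp1 did not pass. The test was edgeR's quasi-likelihood test on TMM-normalized counts, and a gene was called when its adjusted p-value, by the Benjamini-Hochberg method over all genes tested, was under 0.05. Differences are GapmeR minus negative control throughout. In the same comparison, 45.3% of all genes tested were called, 20.0% as lower and 25.4% as higher, against 7, 6 and 1 of the 10 genes. In all, 4625 genes were higher and 3643 lower, and with library size as the only scaling 6106 were higher and 2135 lower. Without negative control 2, 5232 genes were called, 1930 of them lower, and without negative control 1 the number lower was 2262. In these fits the control arm is 1 sample, which is assumed to vary like the GapmeR samples, and the design is smaller, so a lost call is not by itself a smaller difference. The groups did not overlap in 9 of the 10 genes (7 lower and 2 higher in all GapmeR samples), and in 59.2% of all genes tested, 27.3% lower and 31.9% higher. The 2 higher were Pycard and Il1rl1, which were tested only through the GapmeR samples, so their direction is no independent result. Both also enter the median that follows. The median log2 fold change of the 10 genes was -0.65, and that of all genes tested 0.03. The smallest p that an exact permutation test can give with 4 and 2 samples is 0.0667.

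Gm39822, the targeted RNA, was low in every GapmeR sample. It had 2, 1, 4 and 2 counts in the 4 knockdown samples and 61 and 56 counts in the negative controls, a difference of -4.82 log2 units (SE 0.41, edgeR quasi-likelihood test, adjusted p = 8.82e-08).

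Levels of the 10 genes can be compared with each other only per length, and were therefore expressed as TMM-normalized CPM per kb of exon (RPKM), with exon lengths from the GENCODE annotation. In the negative controls, Il18bp had the highest level, 21.4 ± 0.743 RPKM (SD, n = 2), followed by Gsdmd at 9.93 ± 0.478 RPKM, Casp4 at 5.20 ± 0.230 RPKM, Il1rap at 3.32 ± 0.0240 RPKM and Il33 at 1.29 ± 0.219 RPKM. The other 5 genes lay below 0.5 RPKM, in the order Il1r1, Il18, Casp1, Pycard and Il1rl1. Neighbors in this order were separated in both controls except Il18 and Casp1, whose values overlapped. In the GapmeR samples, Il18bp was still the highest at 5.28 ± 0.723 RPKM (SD, n = 4), but its values overlapped with those of Casp4, and those of Casp4 with those of Gsdmd. The values of Il1r1 and Il33, of Casp1 and Pycard, and of Pycard and Il18 also overlapped in the GapmeR samples. Over all 6 samples, Il18bp lay at percentile 80.6 of the genes tested, Gsdmd at 70.7 and Casp4 at 65.8, whereas Il18 lay at percentile 19.1, Pycard at 12.4 and Il1rl1 at 1.47.

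**Figure D1:**
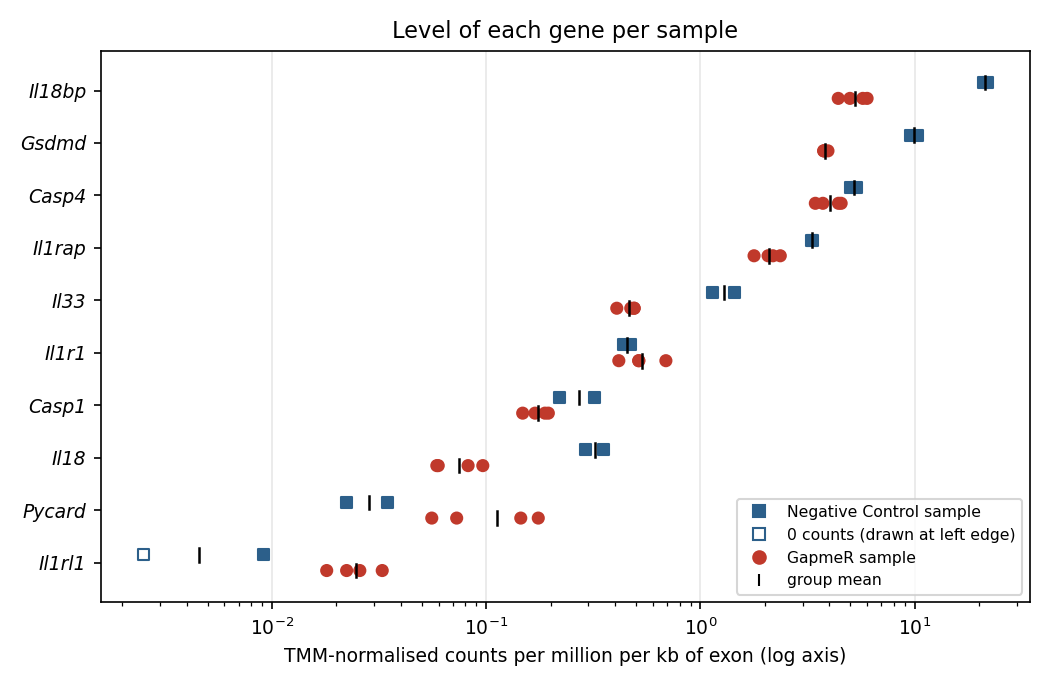
Level of each of the 10 genes in every sample, in TMM-normalized CPM per kb of exon on a log axis; blue squares are the 2 negative control samples, red circles the 4 GapmeR samples, black bars the group means, and the open square a sample with 0 counts. Il18bp, Gsdmd, Il33 and Il18 stand clearly to the left in the GapmeR samples, and the groups overlap in Il1r1.

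Among the 10 genes, the cytokines Il18 and Il33 and the IL-18 inhibitor had the largest falls in fold. Sequences upstream of these 3 genes are given first, since they are the members with the largest falls that the promoter table holds. Each is the 250 bases before the RefSeq start, 5′ to 3′ on the strand of the gene in build GRCm38.p6 (mm10). Capitals would mark a match to one of 3 motifs searched on both strands, the ISRE core (GAAA, any 2 bases, GAAA), the GAS element TTCNNNGAA and an NF-kB motif (GGG, any 2 bases, TTTCC), and these 3 windows hold none. The letters searched were chosen after the windows had been read.
Il18bp, chr7:102018233-102018482, reverse strand: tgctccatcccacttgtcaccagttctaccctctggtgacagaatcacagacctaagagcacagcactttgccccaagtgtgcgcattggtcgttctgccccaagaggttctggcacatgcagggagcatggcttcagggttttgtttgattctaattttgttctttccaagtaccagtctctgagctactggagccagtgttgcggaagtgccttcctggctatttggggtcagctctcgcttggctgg
Il18, chr9:50554450-50554699, forward strand: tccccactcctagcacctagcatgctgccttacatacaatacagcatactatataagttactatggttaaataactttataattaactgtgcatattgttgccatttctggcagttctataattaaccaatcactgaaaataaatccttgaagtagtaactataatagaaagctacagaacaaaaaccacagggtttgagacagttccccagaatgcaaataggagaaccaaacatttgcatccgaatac
Il33, chr19:29924863-29925112, forward strand, the more upstream of 2 starts: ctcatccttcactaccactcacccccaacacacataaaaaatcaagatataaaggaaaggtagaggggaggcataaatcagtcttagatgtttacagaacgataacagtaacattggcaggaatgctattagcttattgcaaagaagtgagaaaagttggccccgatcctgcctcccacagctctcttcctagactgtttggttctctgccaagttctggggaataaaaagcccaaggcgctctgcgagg
Of all 32817 windows of this length in the RefSeq table, 2.97% hold the ISRE core, 7.01% the GAS element and 1.41% the NF-kB motif. A GC content of 35.6% in the Il18 window, 45.2% in that of Il33 and 52.4% in that of Il18bp was counted. The table holds 9 of the 10 genes, all but Gsdmd, with 13 windows, and 8 of the 9 have no match in any window.

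Il18bp encodes the soluble protein that binds and neutralizes IL-18. It is found at chromosome 7, positions 102015074 to 102018232 of mm10 and is listed as ENSMUSG00000070427. Its expression was 29.8, 21.9, 28.5 and 24.8 CPM in the 4 knockdown samples and 103.8 and 109.0 CPM in the negative controls. All GapmeR samples were below both controls, and the spread within each group was small against the gap. The difference was -2.02 log2 units (SE 0.10, edgeR quasi-likelihood test, adjusted p = 7.7e-10), a level 4.06-fold lower. Exons of Numa1, on the other strand, share 446 bases with those of Il18bp, which is 8.98% of the exon length of Il18bp, and the strand setting of the counting is not given in the sources used here. Numa1 itself had a log2 change of -0.46 (SE 0.08). Il33, Il1rap, Casp1, Pycard and Gsdmd also share between 2.57% and 11.5% of their exon length with genes on the other strand.

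Il18 encodes the cytokine that Il18bp neutralizes. It had 6, 7, 9 and 8 counts in the 4 knockdown samples and 24 and 34 counts in the controls, or 0.177, 0.180, 0.290 and 0.248 CPM against 0.876 and 1.07 CPM. The highest GapmeR sample was thus far below the lower control, but all values rest on few reads. Its log2 fold change was -2.12 with a SE of 0.37 (edgeR adjusted p = 0.000194), and the ratio of summed counts, scaled for depth, was 0.225 (95% exact interval 0.140 to 0.356, counting error only).

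The ratio of Il18 to its inhibitor, chosen with earlier results of these data known, needs no scaling within a sample. For each Il18 count there were 168, 122, 98.1 and 100.0 Il18bp counts in the 4 knockdown samples and 118 and 102 in the controls. The ranges overlapped, with GapmeR sample 1 the highest. The log2 ratio of Il18 to Il18bp was -6.80 ± 0.345 (SD, n = 4) after knockdown and -6.76 ± 0.143 (SD, n = 2) in the controls (2-sided exact permutation test, p = 1.0), and this p does not show that the ratio was constant. The difference between the log2 fold changes of the 2 genes was -0.10, with a 95% interval of -0.84 to 0.65 when their errors are taken as independent, so changes of the ratio within these bounds were not detectable.

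Il33, the nuclear alarmin, is found at chromosome 19, positions 29925113 to 29960718 of mm10. It was at 2.92, 3.03, 2.51 and 3.03 CPM in the 4 knockdown samples and at 7.04 and 8.96 CPM in the controls. The GapmeR samples lay close together and all below both controls. The difference was -1.48 log2 units (SE 0.15, edgeR quasi-likelihood test, adjusted p = 9.96e-07), a level 2.78-fold lower.

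Other ligands of the family had few counts. Of the 11 genes in a list of ligands and antagonists, Il18, Il18bp and Il33 included, 6 were tested, 4 fell and 0 rose, with a median log2 fold change of -1.75. The share called was 66.7% with these 3 genes and 33.3% without them, against 45.3% of all genes tested. Without these 3 genes, 3 were tested, 1 fell (Il36a, an IL-36 cytokine that passed the filter only through the controls, where it was higher) and 0 rose, and the median was 0.83, of the opposite sign. Il1a, which encodes IL-1 alpha, had 1 count in all samples together, and Il1b, which encodes IL-1 beta, had 1, 0, 7 and 3 counts after knockdown and 1 and 2 in the controls. At this depth a change in either was not detectable. Il1rn, the IL-1 receptor antagonist, had 6, 4, 12 and 5 counts against 1 and 5 (edgeR adjusted p = 0.316).

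Of the 3 receptor genes among the 10, Il1rap fell, and Il1r1 and Il1rl1 did not pass the test. Il1rap encodes the accessory chain shared by the receptors for IL-1, IL-33 and IL-36, and is found at chromosome 16, positions 26581509 to 26730128 of mm10. It was at 31.6, 36.1, 27.1 and 33.3 CPM in the 4 knockdown samples and at 51.0 and 50.5 CPM in the controls. All GapmeR samples were below both controls, which were nearly equal. The difference was -0.66 log2 units (SE 0.09, edgeR quasi-likelihood test, adjusted p = 3.49e-05). The gene also makes a soluble form, and counts per gene do not separate the forms.

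Il1r1, the signaling receptor for IL-1, was at 2.83, 3.52, 3.51 and 4.70 CPM in the 4 knockdown samples and at 2.99 and 3.23 CPM in the controls. The groups overlapped, with GapmeR sample 4 the highest and GapmeR sample 1 the lowest of all 6. Its log2 fold change was 0.22 with a 95% interval of -0.20 to 0.65 (edgeR adjusted p = 0.385). Il1rl1, which encodes ST2, the IL-33 receptor, was almost absent. It had 6, 6, 7 and 4 counts after knockdown and 0 and 2 in the controls, so its higher values after knockdown rest on 2 control counts. The ratio of summed counts was 5.01 (95% exact interval 1.24 to 43.8, counting error only), and edgeR's adjusted p was 0.0594. It was 0.0444 from edgeR with library size as the only scaling. Because Il1rl1 passed the filter only through the GapmeR samples, none of these values is independent support for a rise.

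Of the 10 genes in the receptor list, 6 were tested, 1 rose and 2 fell, with a median log2 fold change of 0.29. With Il1r1, Il1rap and Il1rl1 left out, 3 were tested, 1 rose and 1 fell, and the median was 0.357. Sigirr, a receptor that dampens IL-1 and Toll-like receptor signaling, fell, with 82.9 ± 4.10 CPM (SD, n = 4) in the GapmeR group against 113.4 ± 3.33 CPM (SD, n = 2) in the controls, a log2 change of -0.45 (SE 0.07). Per length it was the most abundant receptor of the list, at 24.9 RPKM in the controls, against 3.32 RPKM for Il1rap and 0.456 RPKM for Il1r1. Il18rap, the accessory chain of the IL-18 receptor, rose from 9.90 ± 0.758 to 12.7 ± 0.964 CPM (0.36 log2 units, SE 0.11, edgeR quasi-likelihood test, adjusted p = 0.0157), and without negative control 2 the difference was 0.30 log2 units with an adjusted p of 0.15 from the same test. Its partner Il18r1, the chain that binds IL-18, had 5, 2, 3 and 1 counts after knockdown and 1 and 0 in the controls and was not tested.

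In the inflammasome, Gsdmd was lower in every GapmeR sample and the caspases differed less. Gsdmd, which encodes the pore-forming gasdermin D, is found at chromosome 15, positions 75862144 to 75867408 of mm10. It was at 11.3, 11.4, 11.8 and 11.3 CPM in the 4 knockdown samples and at 28.8 and 30.8 CPM in the controls. The GapmeR samples were nearly identical, and all lay below both controls. The difference was -1.38 log2 units (SE 0.08, edgeR quasi-likelihood test, adjusted p = 1.82e-09), a level 2.60-fold lower.

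Casp4, which encodes caspase-11, and Casp1 lie next to each other on chromosome 9 of mm10, Casp1 from 5298517 to 5307281 and Casp4 from 5308849 to 5336791. Casp4 was the only member whose upstream window held a motif match, so this window is shown, with its 2 matches to the NF-kB motif in capitals, the second of them on the other strand. Casp4 has 2 RefSeq starts, and the matches begin 93 and 14 bases before the more upstream start, and 104 and 25 bases before the other.
Casp4, chr9:5308599-5308848, forward strand: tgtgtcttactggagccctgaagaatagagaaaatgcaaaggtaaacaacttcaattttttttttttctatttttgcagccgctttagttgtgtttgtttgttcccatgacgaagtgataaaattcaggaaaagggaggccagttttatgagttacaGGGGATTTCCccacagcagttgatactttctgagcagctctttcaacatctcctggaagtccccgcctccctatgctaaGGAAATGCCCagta
A match is a description of letters and was not tested for binding. The count depends on the letters: with another spelling of the NF-kB motif (GGG, any 2 bases, TTCCC), found in 1.54% of all windows, the Casp4 window holds 1 match, and it is again the 1 member with any.

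Casp4 was at 23.8, 19.6, 23.1 and 18.1 CPM in the 4 knockdown samples and at 26.4 and 28.1 CPM in the controls. The GapmeR samples were all below both controls, but the gap from GapmeR sample 1 to negative control 1 was smaller than the range within the GapmeR samples. The difference was -0.37 log2 units (SE 0.11, edgeR quasi-likelihood test, adjusted p = 0.0106). The call was lost without negative control 1, where the difference was -0.39 log2 units (edgeR adjusted p = 0.0556), without negative control 2, where it was -0.30 log2 units (edgeR adjusted p = 0.15), and with library size as the only scaling (log2 fold change -0.22, edgeR adjusted p = 0.0991). Casp1, the caspase that matures IL-1 beta and IL-18, had 18, 23, 19 and 15 counts after knockdown and 19 and 32 in the controls. In CPM the GapmeR samples, at 0.464 to 0.612, were below the controls, at 0.693 and 1.00, and its log2 fold change of -0.63 had a 95% interval of -1.31 to 0.05 (edgeR adjusted p = 0.12).

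In the list of caspases and gasdermins, 8 of 15 genes were tested, 3 fell and 1 rose, with a median log2 fold change of -0.37. The other 4 of the 8 were not called, and of all genes tested 45.3% were called. With Casp1, Casp4 and Gsdmd left out, 5 were tested, 1 fell and 1 rose, and the median was -0.215. The 1 that rose, Gsdmc4, passed the filter only through the GapmeR samples. Casp12, a related caspase that lies in the same gene family, fell, with 36.8 ± 4.94 CPM (SD, n = 4) in the GapmeR group against 48.4 ± 3.05 CPM (SD, n = 2) in the controls, a difference of -0.40 log2 units (SE 0.10, edgeR quasi-likelihood test, adjusted p = 0.00625). Without negative control 2 the difference was -0.31 log2 units and the adjusted p 0.13, and with library size as the only scaling 0.055, both from edgeR. Casp1, Casp4 and Casp12 are similar in sequence, and reads could have been split between them by the counting. Ninj1, which encodes the protein that ruptures the plasma membrane after pores form, was at 113.3 ± 16.6 CPM after knockdown and 131.5 ± 10.7 CPM in the controls and overlapped between the groups.

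Pycard, the adaptor ASC, was the 1 member called as higher, and it passed the filter only through the GapmeR samples. It had 8, 12, 19 and 24 counts in the 4 knockdown samples and 4 and 3 in the controls. The GapmeR samples were all above both controls, and samples 3 and 4 were the highest. The difference was 1.95 log2 units (SE 0.63, edgeR quasi-likelihood test, adjusted p = 0.0191), for a gene whose controls were both under the filter of 5 counts, so this call is no independent support for a rise. The ratio of summed counts was 3.92 (95% exact interval 1.80 to 10.1, counting error only). It rests on the same counts and is no independent support either. With edgeR its adjusted p was 0.0522 without GapmeR sample 4 (1.65 log2 units), 0.0655 without negative control 1 (2.29 log2 units), 0.154 without negative control 2 (1.68 log2 units) and 0.149 without both GapmeR samples 3 and 4 (1.21 log2 units).

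For most markers of macrophages, cells that express inflammasome genes strongly, GapmeR samples 3 and 4 were also the highest. The summed expression of 12 macrophage markers was 226.6, 207.3, 349.9 and 382.5 CPM in the 4 knockdown samples and 176.9 and 172.6 CPM in the controls. All 12 had counts and were tested, and 3 of them, Cd68, Fcgr1 and Mrc1, rose. Fcgr1, with 4 and 7 counts in the controls, passed the filter only through the GapmeR samples. GapmeR samples 3 and 4 were the highest of the 6 in 9 of the 12 markers and not in Cd68, Cd14 and Aif1. Lyz2, which had the highest mean CPM of the list, was at 79.1, 73.4, 167.5 and 205.7 CPM against 68.8 and 62.1 CPM. Cd68, the most abundant per length, was at 123.1, 112.9, 125.0 and 116.1 CPM against 87.2 and 89.4 CPM. Cd14 was at 2.69, 2.18, 4.03 and 3.06 CPM against 3.72 and 4.57 CPM. Their part in the values of Pycard, Il18, Casp1 and the other low members was not tested. Fewer cells of a type and less RNA per cell cannot be told apart in these bulk samples.

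**Figure D2:**
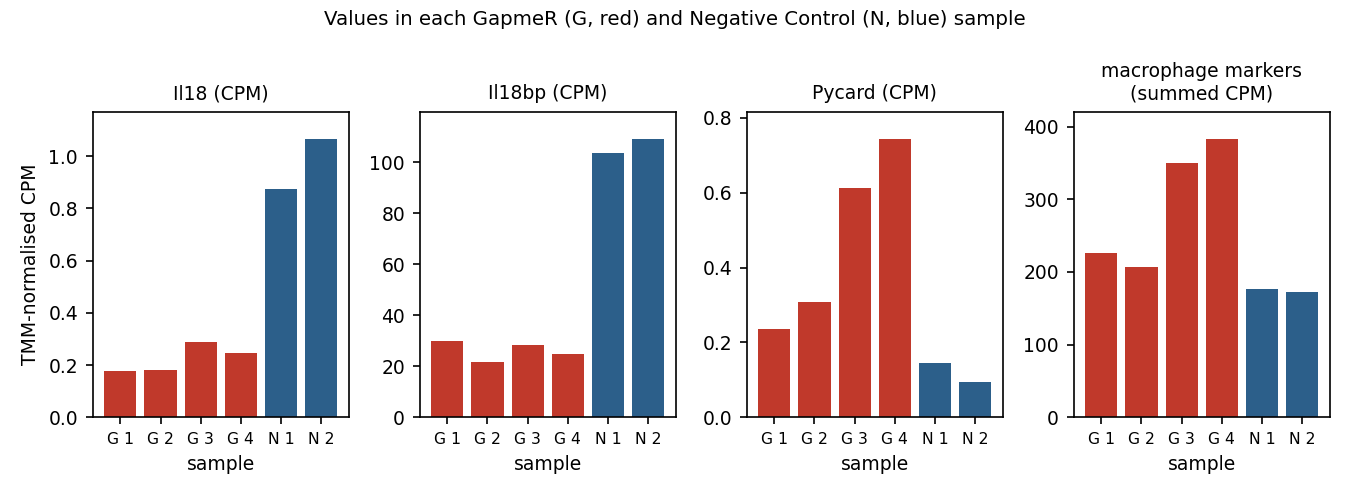
Il18, Il18bp and Pycard and the sum of 12 macrophage markers in each sample, in TMM-normalized CPM; red bars are GapmeR samples 1 to 4 (G) and blue bars negative controls 1 and 2 (N). Il18 and Il18bp are lower in all GapmeR samples, and Pycard and the macrophage markers are both highest in G 3 and G 4.

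Endothelial markers other than Vwf were abundant in all samples, and Vwf lay at percentile 28.9 of the genes tested per length. The largest changes were in Emcn, at -1.33 on the log2 scale, and in Erg, at 1.12. The 12 markers were all tested and summed to between 8846 and 10040 CPM in the GapmeR samples and to 10800 and 10370 CPM in the controls, and 6 of them fell and 2 rose. Egfl7 had the highest mean CPM, and Cldn5 was the most abundant per length. Markers of fibroblasts summed to 95.1 CPM in GapmeR sample 3 and to between 16.4 and 23.4 CPM in the other 5 samples, and all 7 were tested and 0 were called. Pdgfra had the highest mean CPM over the 6 samples, but in GapmeR sample 3 Col1a1 was higher, at 38.0 CPM against 10.2 CPM. Col1a1 was also the most abundant per length over the 6 samples, but this rank rested on GapmeR sample 3. Smooth muscle and pericyte markers summed to between 8.59 and 12.99 CPM after knockdown and to 2.23 and 2.10 CPM in the controls, and 2 of 7 tested, Myh11 and Tagln, rose. Myh11 had the highest mean CPM over the 6 samples but not in the controls, and Tagln was the most abundant per length. Lymphocyte markers summed to at most 1.03 CPM, with Cd79a the most abundant in CPM and per length and Ms4a1 and Nkg7 at 0 counts in all samples, and the 1 marker tested of 8 rose. Epithelial markers summed to at most 1.27 CPM, with Krt18 the most abundant in CPM and per length, and of 4 tested 1 rose and 1 fell. The gene that rose and the gene that fell each passed the filter only through the group where it was higher.

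Of the 15 sensors, adaptors and cofactors listed, 13 were tested, 4 rose, Pycard among them, and 2 fell, with a median log2 fold change of 0.47. The share called was 46.2%, near the 45.3% of all genes tested. Of the 4 that rose, Pycard, Nlrp6 and Nlrc4 passed the filter only through the GapmeR samples, and all enter the median. Without Pycard the median was 0.285. Nek7, the kinase that NLRP3 needs to assemble, fell, with 39.7 ± 3.74 CPM (SD, n = 4) in the GapmeR group against 107.7 ± 0.284 CPM (SD, n = 2) in the controls, a difference of -1.44 log2 units (SE 0.08, edgeR quasi-likelihood test, adjusted p = 6.23e-10). Its partner Nlrp3 had 8, 7, 23 and 15 counts after knockdown and 6 and 4 in the controls, again highest in GapmeR samples 3 and 4 (edgeR adjusted p = 0.14). Aim2, the sensor of cytosolic DNA, fell by 0.49 on the log2 scale (SE 0.13, edgeR adjusted p = 0.00478), and without negative control 2 it fell by 0.46 (edgeR adjusted p = 0.0606). Nlrp1b, a sensor of proteases, rose from 16.1 ± 2.52 to 22.2 ± 1.55 CPM (log2 fold change 0.47, SE 0.11), with an adjusted p from edgeR of 0.00195, and without negative control 2 the log2 fold change was 0.33 (edgeR adjusted p = 0.0681). Txnip, an NLRP3 cofactor with high expression, was at 296.6 ± 23.3 CPM after knockdown and 288.8 ± 17.0 CPM in the controls.

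**Figure D3:**
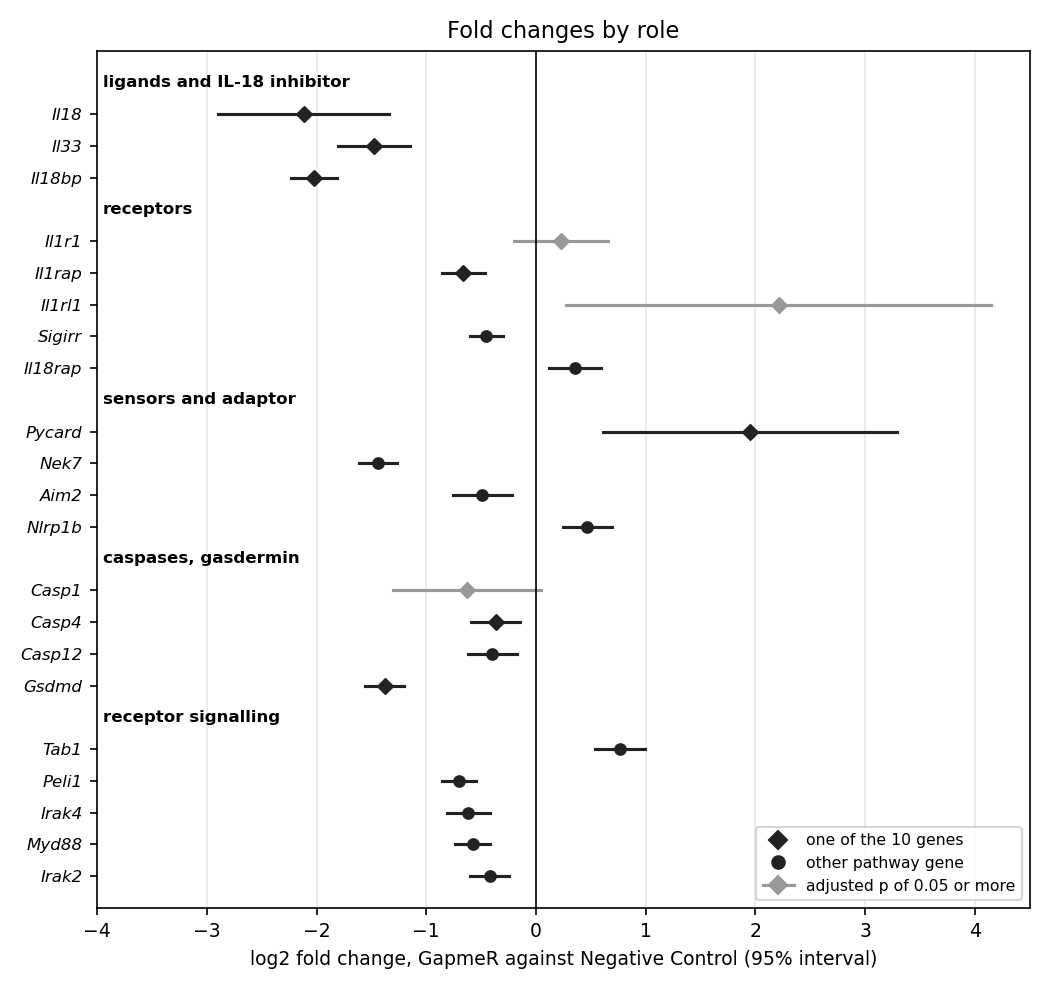
Log2 fold changes of GapmeR against negative control with 95% intervals from edgeR, by role; diamonds are the 10 genes, circles the other pathway genes named by rule (adjusted p-value under 0.05, mean of at least 1 CPM, no overlap of the groups, IL-1 response genes not drawn), and gray marks genes with an adjusted p-value of 0.05 or more. Of the genes drawn, Il18, Il18bp, Il33, Nek7 and Gsdmd lie furthest below 0, and the interval of Il1r1 includes 0.

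Below the receptors, all 17 listed signaling genes were tested, 7 fell and 3 rose, with a median log2 fold change of -0.12. The share called was 58.8%, against 45.3% of all genes tested. Peli2, one of those that rose, passed the filter only through the GapmeR samples. Myd88, the adaptor of the IL-1 and IL-18 receptors, fell, with 66.2 ± 3.38 CPM (SD, n = 4) in the GapmeR group against 98.8 ± 8.33 CPM (SD, n = 2) in the controls, a log2 change of -0.58 (SE 0.07). Its exons share 628 bases, 16.2% of their length, with those of Acaa1a on the other strand. The kinase genes Irak4 and Irak2 fell by 0.62 and 0.42 on the log2 scale. Peli1, an E3 ubiquitin ligase, fell from 60.5 ± 3.04 CPM to 37.2 ± 1.80 CPM. Tab1, a partner of the kinase TAK1, moved the other way, from 11.6 ± 0.923 to 19.7 ± 1.68 CPM (0.77 log2 units, SE 0.11, edgeR quasi-likelihood test, adjusted p = 2.27e-05). Irak1 overlapped between the groups, at 0.10 on the log2 scale, and so did Map3k7, which encodes TAK1.

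Of 15 genes widely induced by IL-1 in endothelium, 13 were tested, 5 fell and 4 rose, with a median log2 fold change of 0.08. The share called was 69.2%, against 45.3% of all genes tested, in a list made with earlier results known. Csf3, one of those that rose, passed the filter only through the GapmeR samples. Those that fell included the adhesion molecules Vcam1 and Sele, at -1.21 and -0.92 on the log2 scale, and the cytokines Il6 and Ccl2, at -1.10 and -0.76, and their direction in these cells was known when the list was made. Nfkbiz, which encodes the NF-kB cofactor IkB zeta, rose, with 55.5 ± 4.76 CPM (SD, n = 4) in the GapmeR group against 35.0 ± 2.91 CPM (SD, n = 2) in the controls, a difference of 0.67 log2 units (SE 0.09, edgeR quasi-likelihood test, adjusted p = 1.81e-05). Nfkbia, the NF-kB inhibitor, was at 79.1 ± 4.12 CPM after knockdown and 74.7 ± 2.28 CPM in the controls and overlapped between the groups.

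Among genes with a mean of at least 1 CPM, those whose pattern over the 6 samples was most like that of Il18 were Zfp710, Rnf19b and Grap, with Pearson's r of log2 CPM of 0.998, 0.997 and 0.997. For Il18bp they were Hyou1, Tnc and Tapbpl, at 0.9996, 0.9994 and 0.9993. The 6 points fall into 2 groups and share libraries, and 8.33% of 12771 genes had r above 0.95 with Il18 and 10.6% of 12770 with Il18bp, so the order among them is a description only.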

How the data were processed

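RNA of bEND.3 cells was ribodepleted and sequenced as paired reads by the authors, who trimmed the reads and aligned them to mm10 with STAR and Ensembl transcripts. Trimmomatic 0.36, STAR 2.5.2b and Subread 1.5.2 are listed in the submitters' processing notes. The table the authors deposited holds raw read counts for each gene, and the strand setting is not given in the sources used here. The study describes 4 samples in each group, and 2 negative controls were analysed here; 1 further column of per-sample counts, headed like those of the negative controls, matched no sample label and was not used.

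Genes reaching 5 counts in 2 or more samples were tested with edgeR 4.0.16 (R 4.3.3; TMM, robust quasi-likelihood, Benjamini-Hochberg). CPM values use the TMM factors, 0.936 and 0.932 in the controls and 1.02 to 1.05 in the GapmeR samples. The SE is the log2 fold change divided by the square root of F. A limit of 3 counts was 0.0770 to 0.1095 CPM, and covers counting error only. The exact permutation test of the ratio used log2 counts with 0.5 added. Chi-square over degrees of freedom was 5.87 to 27.95 between samples of a group, so none were the same within sampling noise. In simulated data, the test recovered 33 of 34 genes changed 1.5-fold with a mean of at least 100 counts, and 35 of all 65 changed 1.5-fold. Of 150 calls, 5 were false. The simulation changed few of its 17731 genes, in both directions, with the same dispersion (0.0071) for all. Its shares therefore do not carry over to these data, where 45.3% of genes were called.

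Exon lengths and overlaps are from GENCODE (GRCm39), gene coordinates and promoters from RefSeq (GRCm38.p6). Motif letters were chosen with the windows in view. Members and gene lists were chosen with earlier results of these data known. Vwf, Emcn and Erg were named after their values were seen. Beside the members, the genes named are up to 5 of each list with the largest changes among those that were called, averaged 1 CPM or more and had no overlap between groups; Il1a, Il1b, Il36a, Nlrp6, Nlrc4, Gsdmc4, Peli2, Csf3, Il1rn, Il18r1, Ninj1, Nlrp3, Txnip, Irak1, Map3k7, Nfkbia, Numa1, Cd14, Cd68, Cldn5, Col1a1 and Tagln were chosen after their values were seen. Alternatives were DESeq2 1.42.0, other scalings, filters, thresholds and counts added to the ratio, the replicate block and samples left out; leaving out GapmeR samples 3 and 4 together was added after seeing the data.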

Additional observations from a re-analysis of the deposited data

How the results depend on the processing

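Il18, Il18bp, Il33, Il1rap and Gsdmd kept their direction and an adjusted p-value under 0.05 under every alternative that gave a value, and Il1r1 and Casp1 stayed above it. Without each sample in turn, the log2 fold change was -2.24 to -1.95 for Il18, -2.09 to -1.94 for Il18bp, -1.62 to -1.27 for Il33, -0.43 to -0.30 for Casp4, 1.65 to 2.29 for Pycard and 1.4 to 5.51 for Il1rl1, whose highest value is against a control with 0 counts and is no bound. Casp4 (log2 fold change -0.22) lost its call with library size only, where Il1rl1 (2.35, edgeR adjusted p = 0.0444) gained one; without negative control 2 its adjusted p from edgeR was 0.0454, against the remaining control, at 0 counts. Library size only moved the median of all genes from 0.03 to 0.17, 2 members were then higher, and 2135 genes were lower. Pycard lost its call without GapmeR samples 3 and 4 (log2 fold change 1.21), which left 0 members higher. With at least 10 counts in every sample 0 members were higher, since Pycard, Il18, Il1rl1 and Gm39822 were removed. At least a 1.5-fold change left 4628 genes, 1390 of them lower. Without each sample in turn, 5232 to 8720 genes were called, 1930 to 3948 lower, and 0 to 1 members higher (0 without GapmeR sample 4 or negative control 1). The ratio of Il18 to Il18bp differed by -0.04 on the log2 scale, by 0.020 with 1 count added, and by -0.15 to 0.12 without each sample in turn. Without either control, Gm39822 failed the filter. Il18, Pycard, Casp1 and Il1rl1 had at most 34 counts in a sample. The cause of these changes was not tested.

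Same-numbered GapmeR and negative control samples share only a number: their deviations correlated at -0.0866 and 0.152 over 10142 genes. A block for the replicate number leaves 1 residual degree of freedom. GapmeR samples 3 and 4 have no control of their number, so this fit takes the difference from samples 1 and 2 only. It is therefore no separate check on the main fit. It called 7962 genes, 7294 of them among the 8268, and 0 members were higher. Pycard lost its call (log2 fold change 1.19, edgeR adjusted p = 0.185), with a value close to the 1.21 without GapmeR samples 3 and 4. No other member's call changed.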

Other observations

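Some genes of the pathway below 1 CPM on average also differed between the groups; they were chosen after their values were seen, and each passed the filter of 5 counts in 2 samples only through the group where it was higher, so no p-value is given. Nlrp6, an inflammasome sensor known from the intestine, had 44, 58, 47 and 50 counts in the knockdown samples and 0 in both negative controls, and was at least 14.4-fold higher against a limit of 3 counts per control library. Nlrc4, the sensor adaptor of bacterial flagellin, had 15, 23, 9 and 20 counts against 3 and 2, a ratio of summed counts of 5.84 (95% exact interval 2.38 to 18.6), and its exons share 867 bases with those of Slc30a6 on the other strand. Il36a, an IL-36 cytokine, had 3, 2, 0 and 2 counts against 10 and 10, a ratio of summed counts of 0.152 (95% exact interval 0.0545 to 0.375, counting error only). Gsdmc4, a gasdermin, had 17, 20, 12 and 16 counts against 2 and 8, a ratio of 2.83 (95% exact interval 1.45 to 6.18). The intervals for Nlrc4 and Gsdmc4 also cover counting error only.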
